A study of Mus musculus with 6 samples.

Results

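The 10 genes described here are imprinted, which means that only the copy inherited from one parent is normally expressed. They were taken by symbol from a table of 22032 genes: Rtl1, Meg3, Rian, Mirg and Dlk1, which lie together in the Dlk1-Dio3 cluster, and Peg3, Mest, Cdkn1c, Grb10 and Plagl1, which lie elsewhere. Igf2 and H19 were left out. RNA came from the temporomandibular joint, the jaw joint, of mice aged 10 weeks, 3 libraries labelled Igf2bp2-KO (Igf2bp2-/-) and 3 labelled WT, described as littermates. The labels give no deletion design, Cre driver, sex or number of animals per library. IGF2BP2 binds mRNAs, among them those carrying m6A, and takes its name from the mRNA of Igf2, itself an imprinted gene. All values are bulk measurements, in which fewer cells of a type and less RNA per cell cannot be told apart, and none separates the parental copies.

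In the Dlk1-Dio3 cluster, Dlk1, Rtl1 and Dio3 are expressed from the paternal chromosome and encode proteins. Meg3, Rian and Mirg are expressed from the maternal chromosome as long non-coding RNAs that host many snoRNAs and microRNAs, and a maternally unmethylated control region upstream of Meg3 sets this pattern. Peg3, Mest and Plagl1 are paternally expressed, Cdkn1c is maternally expressed, and Grb10 is maternally expressed in most tissues but paternally in neurons. Many imprinted genes act on fetal and postnatal growth, and several are held to form a co-regulated network whose expression drops after birth in most tissues.

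The RNAs of the cluster also pair with each other, and the sequences are shown because this bears on how counts at Rtl1 can be read. In RefSeq (GRCm38.p6), 57 microRNA hairpin genes, giving 112 mature microRNAs with 102 distinct seeds, lie from Meg3 to Mirg. The GENCODE transcript of Rtl1 is 6358 bases long. In it, 11 of these mature microRNAs, from 6 genes on the opposite strand to Rtl1, have a full complement. The mature sequences of 5 of them follow, with the seed (bases 2 to 8) in capitals, each with its site in Rtl1, where capitals mark the seed match.
miR-431-5p: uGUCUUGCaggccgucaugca
Rtl1 site for miR-431-5p: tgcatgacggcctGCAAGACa
miR-433-3p: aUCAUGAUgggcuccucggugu
Rtl1 site for miR-433-3p: acaccgaggagcccATCATGAt
miR-127-3p: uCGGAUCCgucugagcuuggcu
Rtl1 site for miR-127-3p: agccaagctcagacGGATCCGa
miR-434-3p: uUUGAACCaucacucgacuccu
Rtl1 site for miR-434-3p: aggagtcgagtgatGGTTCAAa
miR-136-5p: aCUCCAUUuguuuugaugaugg
Rtl1 site for miR-136-5p: ccatcatcaaaacaAATGGAGt
These 5 seeds all differ. None of the microRNA genes, and none of the 19 annotated snoRNA genes of the interval, has a row in the count table, so the cluster is read here through its long transcripts. The sources used here give no strand setting for the counting, so reads of Rtl1 and of a transcript on the other strand cannot be told apart. In RefSeq, the span of Rtl1 also overlaps that of Meg3 by 6830 bases and that of Rian by 474 bases, both on the opposite strand. In GENCODE, Rtl1 overlaps microRNA genes but neither Meg3 nor Rian, so the 2 annotations differ here.

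Total counts per library ranged from 28551236 to 35094127, of which mitochondrial genes took 85.3% to 86.0% in KO and 90.6% to 90.8% in WT libraries. KO 1 with KO 3, and WT 2 with WT 3, differed at the median gene by less than the noise of drawing read pairs, so each of these pairs was summed and counted as 1 sample, which leaves n = 2 samples per group. The mean over genes of that variance ratio was higher, 1.18 for KO 1 with KO 3 and 1.08 for WT 2 with WT 3. Single genes differed far more, such as Adnp with 417 counts in KO 1 and 3 counts in KO 3. Igf2bp2 had 13, 14 and 10 counts in KO libraries against 38, 20 and 24 counts in WT libraries, a log2 fold change of -1.80 (SE 0.39, edgeR false discovery rate 0.00589). Counts of the targeted gene were therefore lower but not absent in KO, and which part of the gene they come from is not given. Levels are given in CPM, counts scaled to 1000000 per library after TMM correction of library size. The cartilage genes Col2a1 and Acan were low in both groups, Col2a1 at 1.25 CPM in KO and 1.47 CPM in WT, and Acan at 0.70 CPM in KO and 0.93 CPM in WT. They do not stand for the 12 measured chondrocyte markers, whose sum was 51.1 to 59.2 CPM in KO and 27.0 to 31.4 CPM in WT. The other measured markers of joint, muscle, nerve and gland are given with the results they move beside.

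Of the 10 imprinted genes, 6 were higher in KO (Rtl1, Meg3, Peg3, Mest, Cdkn1c and Grb10), 2 were lower (Dlk1 and Plagl1), and 2 did not pass the test (Rian and Mirg). The test was edgeR's quasi-likelihood test at a false discovery rate (FDR) under 0.05 over 14632 genes. Of all genes tested, 17.6% passed, 9.15% higher and 8.48% lower. These shares are the background for each count of a gene list given below. Grouped by the copy usually expressed, the paternal members split into 3 higher and 2 lower of 5. The maternal ones split into 3 higher and 2 not passing of 5. The copy was not measured here. Rtl1 counts may include reads of the other strand, and Grb10 is paternally expressed in neurons, so this grouping is uncertain for both. All 10 had KO libraries that did not overlap the WT libraries, 8 above and 2 below, against 38.4% of all genes that did not overlap in either direction, 19.2% above and 19.1% below. The median log2 fold change of the members was 0.57, against -0.01 over all genes tested. Their counts together made 901, 919 and 894 of every 1000000 nuclear counts in KO libraries and 621, 594 and 629 of every 1000000 in WT libraries. The members were picked with earlier results of these data known, so these shares describe them and no test is given over the list. Between the same groups, summed neuron markers stood at 108 to 113 CPM in KO libraries and 21.3 to 22.2 CPM in WT libraries, and their part in the members' values was not tested.

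**Figure D1:**
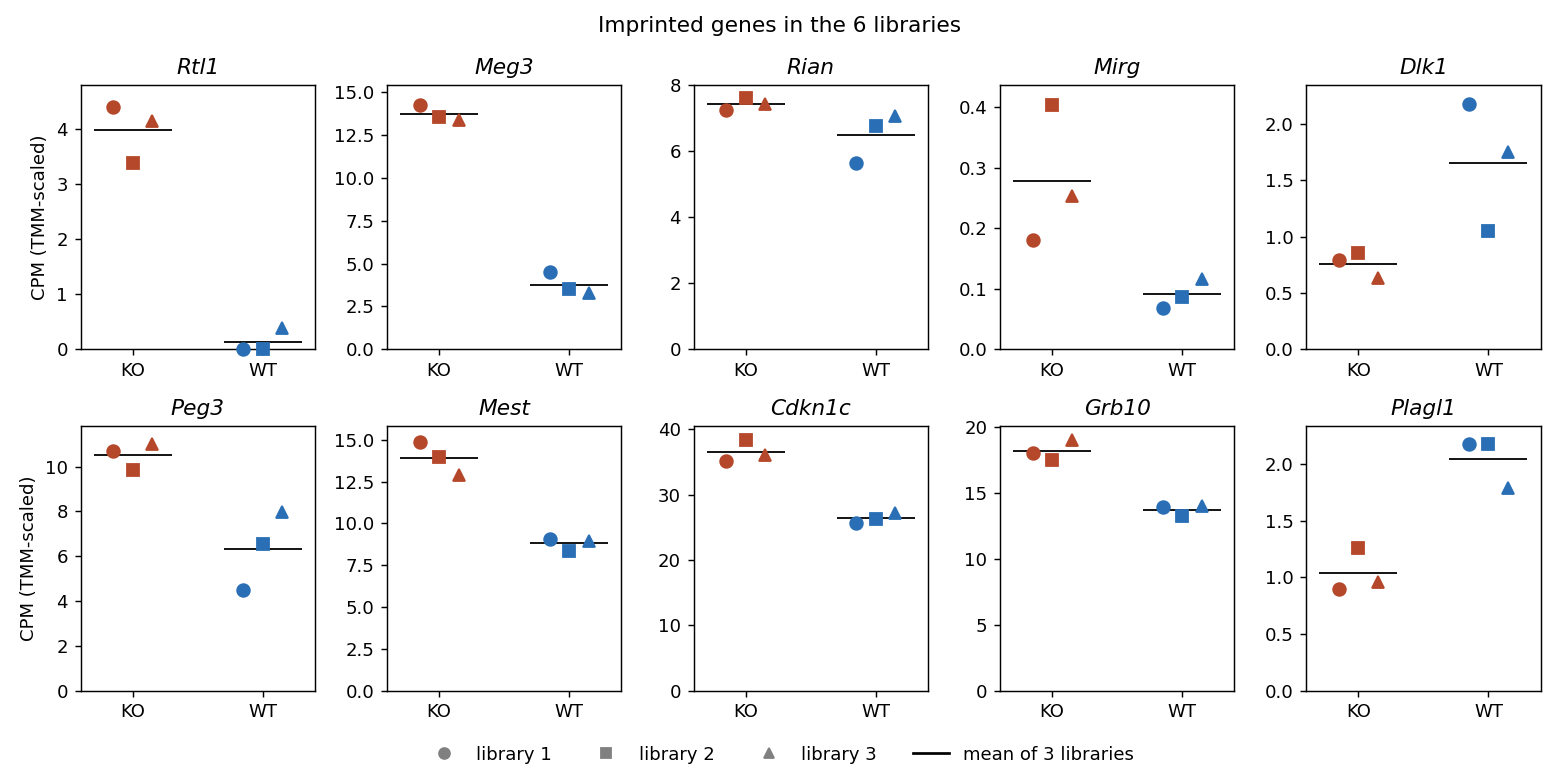
Level of each of the 10 imprinted genes in CPM (vertical axis) in the 3 KO and 3 WT libraries, 1 point per library with a line at their mean. Rtl1 sits between 3.39 and 4.39 CPM in KO and at 0 to 0.388 CPM in WT, and in each panel the KO points lie wholly above or wholly below the WT points.

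Per kilobase of the longest annotated transcript, the 3 highest genes were the same, in the same order, in both groups. Cdkn1c stood highest, at 19.5 CPM per kb in KO and 13.8 CPM per kb in WT. Next came Mest at 5.25 CPM per kb in KO and 3.35 CPM per kb in WT. Grb10 followed at 3.58 CPM per kb in KO and 2.75 CPM per kb in WT. Below them the order differed between groups. Meg3 stood at 0.945 CPM per kb in KO and 0.272 CPM per kb in WT, and Rian at 0.928 CPM per kb in KO and 0.781 CPM per kb in WT. On this scale Meg3 and Rian were close in KO and apart in WT, which depends on the transcript length chosen. In CPM without length scaling, Meg3 stood at 13.7 and Rian at 7.51 in KO, and at 3.96 and 6.32 in WT. Rtl1 was seventh in KO with 0.605 CPM per kb and last in WT with 0.0162 CPM per kb. Peg3 stood at 1.20 CPM per kb in KO and 0.682 CPM per kb in WT. Dlk1, Plagl1 and Mirg stood at 0.0814 to 0.209 CPM per kb in KO and 0.0225 to 0.397 CPM per kb in WT. In WT, Dlk1 (0.388) and Plagl1 (0.397) were above Meg3. These length-scaled levels rest on another annotation than the authors' counting.

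Rtl1 had the largest fold change among the members. It encodes a retrotransposon-derived protein needed for placental capillaries and for muscle development in mice. It had 171, 143 and 164 counts in KO libraries, or 4.39, 3.39 and 4.15 CPM, against 0, 0 and 10 counts in WT libraries, or 0, 0 and 0.388 CPM. Only WT 3 held any Rtl1 count among the WT libraries. Rtl1 averaged 3.85 ± 0.625 CPM in KO samples and 0.103 ± 0.146 CPM in WT samples (SD, n = 2 each), a log2 fold change of 4.91 (SE 0.48, 95% interval 3.81 to 6.00, edgeR FDR 0.000118). As a ratio of summed counts per effective library size it was 30.9-fold higher in KO. The exact 95% counting interval, 16.7 to 64.8, covers counting error only and takes each count as independent. It is too narrow where a read pair gives 2 counts, as was assumed when the libraries were compared. Without WT 3 no WT count is left, and the fitted log2 value becomes 10.4, which is no bound. A floor of 3 counts over WT 1 and WT 2 together gives 69.1-fold higher against WT 1 and WT 2 alone. With 2 counts per read pair that floor is too low. With WT 3 left out, 69.1 is also no lower bound on KO over WT. Exact zeros in this table need care. In 6 genes, 4 within KO and 2 within WT, at least 1 library listed 0 while another of the same group held at least 100 counts. One of them is the imprinted non-coding RNA Peg13. Rtl1 belongs to a family of retrotransposon-derived genes. Of these, 12 were tested, 1 was higher (Rtl1) and 2 lower, against 9.15% and 8.48% of all genes tested. The lower ones, Rtl3 and Rtl6, had log2 fold changes of -2.32 (edgeR FDR 0.0315) and -0.86 (FDR 0.0318).

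Meg3 changed with the smallest p of the members. It is the first of the maternally expressed non-coding RNAs and has been described as growth-inhibiting in cultured cells. It had 14.3, 13.6 and 13.4 CPM in KO libraries against 4.49, 3.53 and 3.26 CPM in WT libraries, from 529 to 572 counts in KO and 81 to 132 counts in WT. Every KO library stood at more than 13 CPM and every WT library at less than 5 CPM. The averages were 13.7 ± 0.184 CPM in KO samples and 3.96 ± 0.783 CPM in WT samples (SD, n = 2 each), a log2 fold change of 1.82 (SE 0.15, 95% interval 1.50 to 2.14, edgeR FDR 2.23e-06), or 3.52-fold higher in KO. Meg3 ranked 98 of 14632 genes by p.

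Rian, which hosts box C/D snoRNAs, did not follow. It had 7.25, 7.61 and 7.43 CPM in KO libraries against 5.65, 6.76 and 7.07 CPM in WT libraries. The lowest KO library was only slightly above the highest WT library. Rian averaged 7.51 ± 0.189 CPM in KO and 6.32 ± 0.907 CPM in WT, and the log2 fold change of 0.24 did not pass (SE 0.14, 95% interval -0.07 to 0.55, edgeR FDR 0.301). Mirg, which hosts microRNAs at the far end of the cluster, was near the limit of detection, with 7, 17 and 10 counts in KO libraries against 2, 2 and 3 counts in WT libraries. Its log2 fold change of 1.71 did not pass either (SE 0.71, 95% interval 0.18 to 3.25, edgeR FDR 0.122), and the interval runs from 0.18 to beyond the value of Meg3.

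Ratios within a library do not depend on scaling. For each count of Meg3, Rian had 0.508, 0.561 and 0.556 counts in KO libraries against 1.26, 1.91 and 2.17 counts in WT libraries. Rian thus had fewer counts than Meg3 in every KO library and more in every WT library. The log2 ratio of Rian to Meg3 differed by -1.55 (KO minus WT). Dlk1 had 0.0559, 0.0629 and 0.0473 counts for each Meg3 count in KO libraries against 0.485, 0.296 and 0.536 counts in WT libraries, a log2 difference of -2.97. Rtl1 had 0.308, 0.250 and 0.310 counts for each Meg3 count in KO libraries against 0, 0 and 0.119 counts in WT libraries. Mirg overlapped between groups, with 0.0126, 0.0297 and 0.0189 in KO libraries against 0.0152, 0.0247 and 0.0357 in WT libraries, a log2 difference of -0.17. With 2 samples a group, a two-sided exact permutation test cannot go below p = 0.333, which the Rian, Dlk1 and Rtl1 ratios reached, and Mirg gave p = 0.667. With the 6 libraries taken singly the smallest p of the exact permutation test is 0.1, which the same 3 ratios reached, and Mirg gave p = 0.4. These 4 ratios are the whole family, and none can pass a threshold of 0.05 in this design.

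**Figure D2:**
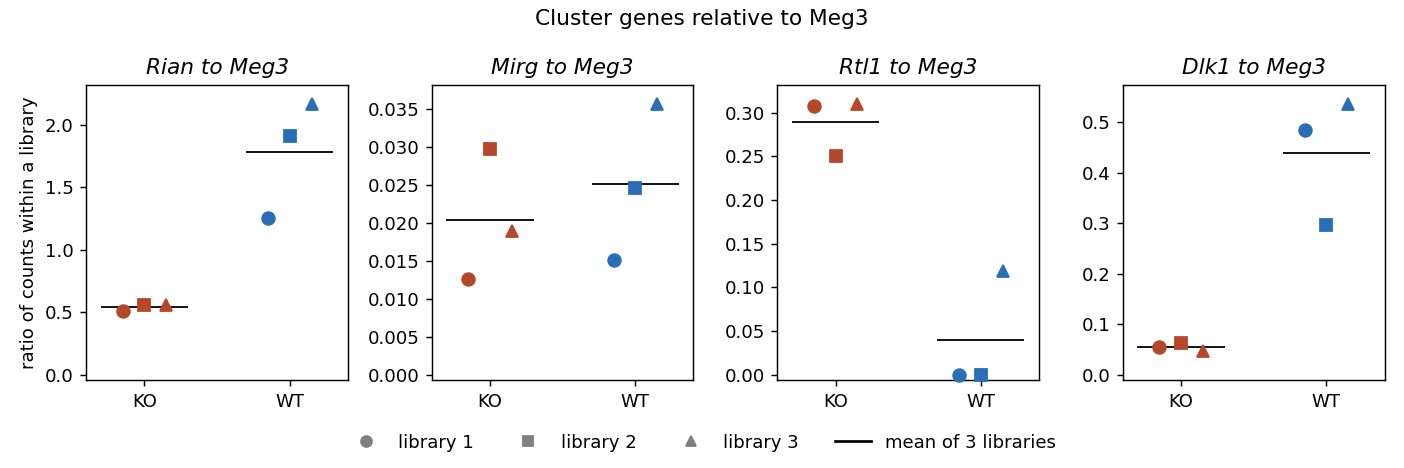
Counts of Rian, Mirg, Rtl1 and Dlk1 for each Meg3 count in the same library, 1 point per library with a line at their mean. The Rian ratio lies at 0.508 to 0.561 in KO and at 1.26 to 2.17 in WT, and the Mirg ratios overlap.

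Dlk1 went the other way from its neighbours Rtl1 and Meg3. It encodes a transmembrane protein related to Notch ligands that marks preadipocytes and restrains their differentiation. Dlk1 had 31, 36 and 25 counts in KO libraries, or 0.797, 0.853 and 0.632 CPM, against 64, 24 and 45 counts in WT libraries, or 2.18, 1.05 and 1.75 CPM. The groups did not overlap in CPM, but the WT libraries spread widely and WT 2 came near the KO range. Dlk1 averaged 0.787 ± 0.099 CPM in KO samples and 1.81 ± 0.540 CPM in WT samples (SD, n = 2 each), a log2 fold change of -1.19 (SE 0.30, 95% interval -1.83 to -0.54, edgeR FDR 0.0137), or 2.28-fold lower in KO. The call was lost with DESeq2's Wald test (FDR 0.129) and without KO 2 (edgeR FDR 0.0613), WT 1 (log2 fold change -0.86, FDR 0.102) or WT 3 (FDR 0.0593).

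The promoters of Meg3 and Dlk1 are shown because these neighbours moved in opposite directions. Each runs from 250 bases before to 50 bases after a RefSeq transcript start (GRCm38.p6, plus strand), chr12:109540746-109541045 for Meg3 and chr12:109452573-109452872 for Dlk1. Where a gene has several starts, the window with most CpG is shown.
Meg3: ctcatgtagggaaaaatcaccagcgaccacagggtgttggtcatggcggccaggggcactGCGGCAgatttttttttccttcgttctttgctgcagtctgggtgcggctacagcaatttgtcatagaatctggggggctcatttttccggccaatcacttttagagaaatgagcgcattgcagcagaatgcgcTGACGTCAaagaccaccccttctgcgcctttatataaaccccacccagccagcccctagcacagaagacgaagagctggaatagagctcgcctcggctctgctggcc
Dlk1: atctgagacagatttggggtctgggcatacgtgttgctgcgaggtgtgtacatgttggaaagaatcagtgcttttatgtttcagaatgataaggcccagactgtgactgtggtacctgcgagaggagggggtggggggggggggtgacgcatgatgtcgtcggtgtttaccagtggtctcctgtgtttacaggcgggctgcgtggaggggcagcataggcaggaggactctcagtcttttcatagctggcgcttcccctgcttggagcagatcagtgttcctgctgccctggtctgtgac
Capitals mark TGACGTCA, the palindromic cAMP response element, and TGCCGC, the hexamer bound by the imprint-keeping zinc finger ZFP57 when methylated, or its reverse complement GCGGCA. GCCATNTT, the core bound by YY1, was also searched on both strands. TGACGTCA was chosen for search after these sequences had been seen. The Meg3 window holds 1 TGACGTCA, which ends 50 bases before the start, and 1 ZFP57 hexamer, with 13 CpG. The Dlk1 window holds 9 CpG and none of the 3 motifs. Of 32851 RefSeq promoters of this length, 1.79% hold TGACGTCA, 11.6% the ZFP57 hexamer and 6.05% the YY1 core, and the median CpG number is 7. These figures cover every window, without the choice of the one with most CpG. TGACGTCA and TGCCGC each hold a CpG, so that choice favours them and the figures are not a matched background.

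The remaining measured genes of the cluster, Dio3 and Dio3os, did not pass. Dio3, which encodes the enzyme that inactivates thyroid hormone, had 8 to 13 counts in KO libraries and 4 to 13 counts in WT libraries (log2 fold change -0.31, edgeR FDR 0.785). Its antisense neighbour Dio3os had a log2 fold change of -0.57 (FDR 0.283). Of 9 genes flanking the cluster, 1 was higher, 1 was lower and 7 did not pass. Begain, a gene next to Dlk1 that is known from neuronal synapses, was higher, with 35, 48 and 13 counts in KO libraries against 6, 5 and 2 counts in WT libraries (log2 fold change 2.32, FDR 0.00668). Hsp90aa1, which encodes a stress-inducible chaperone, was lower (-0.38, FDR 0.0308). Yy1 (0.15), Slc25a29 (-0.15), Slc25a47 (-0.13), Wars (0.41), Wdr25 (-0.23), Ppp2r5c (0.02) and Dync1h1 (0.19) did not pass, the values being log2 fold changes.

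**Figure D3:**
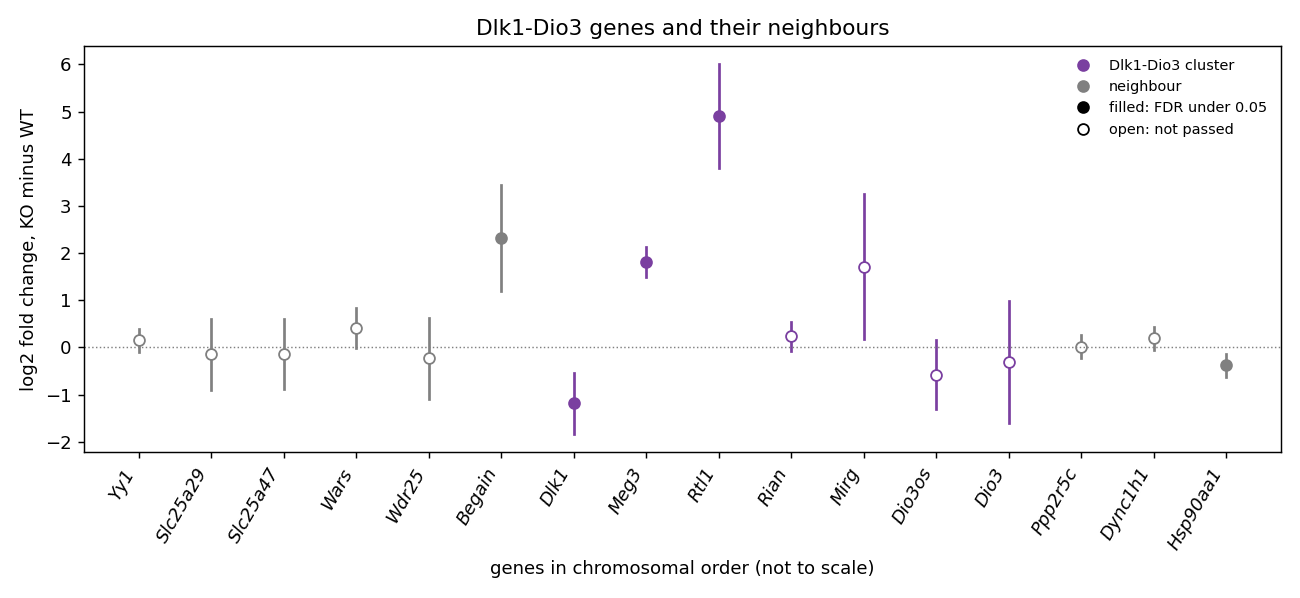
Log2 fold change, KO over WT, with its 95% interval for measured genes of the Dlk1-Dio3 cluster and its flanks, in chromosomal order and not to scale. Rtl1 (4.91), Meg3 (1.82), Begain (2.32) and Mirg (1.71) lie above 0 with their whole interval, and Dlk1 (-1.19) and Hsp90aa1 (-0.38) lie wholly below it, of which Mirg did not pass at the adjusted threshold.

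Peg3 and Mest, both paternally expressed, were higher in KO. Peg3 encodes a large zinc-finger protein tied to growth and maternal behaviour in mice. It had 10.7, 9.86 and 11.0 CPM in KO libraries against 4.49, 6.54 and 7.96 CPM in WT libraries. The WT libraries spread more than the KO libraries without reaching them. Peg3 averaged 10.4 ± 0.719 CPM in KO samples and 5.93 ± 1.99 CPM in WT samples (SD, n = 2 each), a log2 fold change of 0.79 (SE 0.20, 95% interval 0.35 to 1.23, edgeR FDR 0.0202), or 1.73-fold higher. That call was lost without KO 2 (FDR 0.0564) or without WT 2 (FDR 0.0636).

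Mest encodes an alpha/beta-hydrolase fold protein of mesoderm and growing fat. It had 14.9, 14.0 and 12.9 CPM in KO libraries against 9.09, 8.37 and 8.93 CPM in WT libraries. No WT library reached the lowest KO library. Mest averaged 14.0 ± 0.0568 CPM in KO samples and 8.93 ± 0.295 CPM in WT samples (SD, n = 2 each), a log2 fold change of 0.65 (SE 0.12, 95% interval 0.40 to 0.90, edgeR FDR 0.0015), or 1.57-fold higher. Mest overlaps Copg2 on the opposite strand. Copg2 had 48, 72 and 147 counts in KO libraries against 69, 80 and 79 counts in WT libraries and did not pass (log2 fold change -0.42, FDR 0.262).

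The promoter windows of these 2 genes that hold most CpG are shown as a pair because both genes rose. They lie at chr7:6730370-6730669 on the minus strand for Peg3 and at chr6:30737800-30738099 on the plus strand for Mest (RefSeq, GRCm38.p6), with the motifs in capitals as above.
Peg3: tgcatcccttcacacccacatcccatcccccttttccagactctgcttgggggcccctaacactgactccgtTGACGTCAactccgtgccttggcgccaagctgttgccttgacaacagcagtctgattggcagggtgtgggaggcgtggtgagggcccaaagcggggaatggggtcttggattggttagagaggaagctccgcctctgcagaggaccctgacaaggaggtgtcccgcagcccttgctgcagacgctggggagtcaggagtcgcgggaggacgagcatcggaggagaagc
Mest: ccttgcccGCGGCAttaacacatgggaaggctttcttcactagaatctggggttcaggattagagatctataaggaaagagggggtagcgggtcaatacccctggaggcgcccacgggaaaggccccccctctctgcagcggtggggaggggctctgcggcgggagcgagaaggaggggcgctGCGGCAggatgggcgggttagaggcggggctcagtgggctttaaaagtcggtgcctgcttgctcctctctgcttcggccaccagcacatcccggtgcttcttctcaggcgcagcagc
The Peg3 window holds 13 CpG and 1 TGACGTCA, and the Mest window 17 CpG and 2 ZFP57 hexamers. The matching windows of Grb10 and Plagl1 hold 45 and 26 CpG with 1 ZFP57 hexamer each, that of Mirg holds 10 CpG with no motif, and that of Rian holds no CpG and no motif. No window was matched for Rtl1 or Cdkn1c. A match describes these letters only and is not a shown binding site.

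Cdkn1c and Grb10, which restrain growth in mice, were modestly higher in KO. Cdkn1c encodes p57, an inhibitor of cyclin-dependent kinases. It was the most abundant member, with 35.2, 38.3 and 36.0 CPM in KO libraries against 25.6, 26.3 and 27.2 CPM in WT libraries. Cdkn1c averaged 37.1 ± 1.91 CPM in KO samples and 26.3 ± 0.842 CPM in WT samples (SD, n = 2 each), a log2 fold change of 0.49 (SE 0.11, 95% interval 0.25 to 0.74, edgeR FDR 0.00763), or 1.41-fold higher. The call was lost without KO 2 (FDR 0.199). Cdkn1c overlaps an antisense gene, Gm44732, that has no row in the table. Among 16 tested CDK inhibitors and G1 cyclins, 2 were higher and 3 lower, with a list median of -0.04. Cdkn1a, which encodes p21, was higher by 1.43 (log2), and Ccnd1, Ccnd2 and Cdk4, which drive G1, were lower at -1.18, -1.03 and -0.69.

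Grb10 encodes an adaptor that binds the insulin and IGF1 receptors and damps their signalling. It had 18.1, 17.5 and 19.0 CPM in KO libraries against 14.0, 13.3 and 14.1 CPM in WT libraries. Each KO library was above each WT library. Grb10 averaged 18.1 ± 0.741 CPM in KO samples and 13.9 ± 0.190 CPM in WT samples (SD, n = 2 each), a log2 fold change of 0.38 (SE 0.11, 95% interval 0.15 to 0.62, edgeR FDR 0.0282), or 1.31-fold higher. The call was lost with DESeq2's Wald test (FDR 0.147) and without KO 2 (edgeR FDR 0.186). Of 17 tested genes next to these receptors, 3 were higher and 2 lower, with a list median of -0.10. The receptors Insr and Igf1r were higher by 0.64 and 0.69 (log2) and Mtor by 0.55, while the adaptors Irs1 (-0.70) and Shc1 (-0.41) were lower. Nedd4, a ubiquitin ligase known to act with Grb10 on these receptors, was the most abundant of the list and did not pass (-0.31, FDR 0.12).

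Plagl1, the other member that fell, encodes a zinc-finger transcription factor reported to act on other imprinted genes. It had 35, 53 and 38 counts in KO libraries, or 0.899, 1.26 and 0.961 CPM, against 64, 50 and 46 counts in WT libraries, or 2.18, 2.18 and 1.79 CPM. The raw counts overlapped between groups while the depth-scaled levels did not. Plagl1 averaged 1.10 ± 0.231 CPM in KO samples and 2.09 ± 0.146 CPM in WT samples (SD, n = 2 each), a log2 fold change of -0.95 (SE 0.25, 95% interval -1.49 to -0.40, edgeR FDR 0.0189), or 1.93-fold lower. The call was lost with DESeq2's Wald test (FDR 0.227) and without WT 1 (edgeR FDR 0.0653). In a list of 21 PLAG factors and genes reported as targets of Plagl1, 6 were higher and 4 lower, with a median of -0.06. That count holds 4 genes already described, Mest, Cdkn1c and Grb10 (higher) and Dlk1 (lower), and without them 3 of 17 were higher and 3 lower, with a median of -0.09. The matrix genes Col1a1 and Fn1 were higher by 1.11 and 0.83 (log2) and Col3a1 was lower at -0.70.

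**Figure D4:**
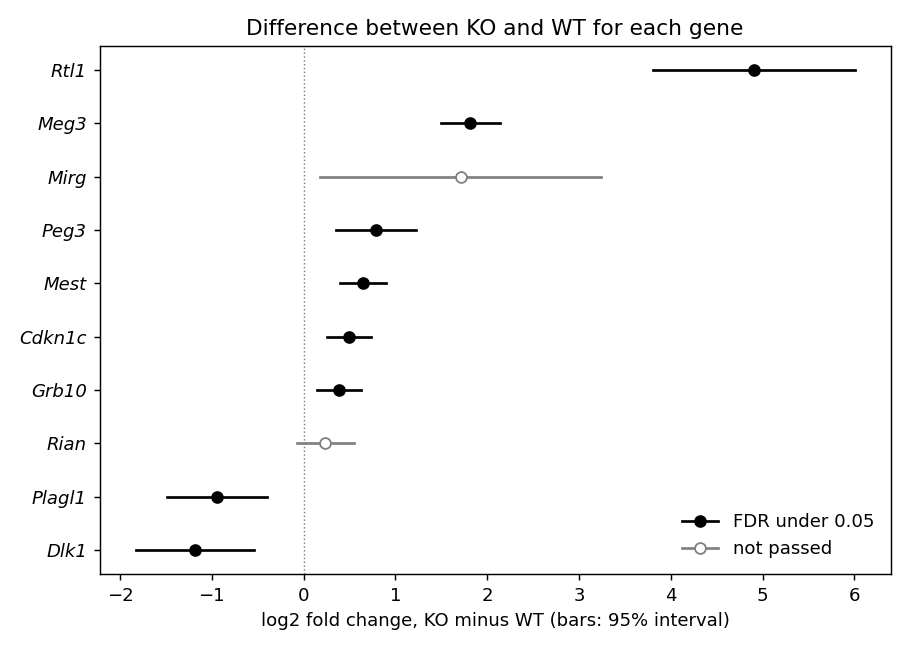
Log2 fold change, KO over WT, of each imprinted gene with its 95% interval, from edgeR. Rtl1 lies farthest to the right at 4.91, Dlk1 and Plagl1 lie left of 0, and the interval of Rian (-0.07 to 0.55) spans 0.

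Imprinted genes outside the set were called in both directions. Over all genes tested, 9.15% were higher and 8.48% lower, and no test was made over these lists. Of 18 tested genes expressed from the paternal copy, 3 were higher and 2 lower, with a list median of 0.18. Nap1l5, a nucleosome assembly protein gene rich in brain, was higher by 2.49 (log2, edgeR FDR 2.4e-05), with 119, 103 and 96 counts in KO libraries against 14, 5 and 17 counts in WT libraries. Inpp5f and the amino acid transporter gene Slc38a4 were higher by 0.72 and 1.09, and Nnat and Sgce were lower at -0.78 and -0.54. Of 16 tested genes expressed from the maternal copy, 2 were higher and 2 lower, with a list median of -0.11. Gatm, for creatine synthesis, and Osbpl5 were lower at -1.39 and -0.64, and Asb4 and the IGF2-clearing receptor gene Igf2r were higher at 1.47 and 0.44. Of 23 tested genes for imprint maintenance and DNA methylation, 2 were higher (Tet2 by 0.63, Arid4b by 0.55) and none lower, with a list median of 0.02.

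Among relatives of Dlk1 in the Notch pathway, 5 of 18 tested genes were higher and 2 lower, with a list median of 0.17. The receptors Notch4 and Notch1 were higher by 1.06 and 0.67 (log2), the target Hey1 by 0.44 and the ligands Jag1 and Dll4 by 0.51 and 0.48. The receptor Notch2 and Rbpj, the DNA-binding partner of Notch, were lower at -0.49 and -0.50. Of 13 tested zinc-finger and apoptosis genes related to Peg3, 1 was higher (Zkscan3, by 0.64), against 9.15% of all genes tested.

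Markers of several cell types moved beside the members, and the same holds for each: its part in the members' values was not tested. Of 28 tested autonomic and peripheral neuron markers, 22 were higher and 1 lower in KO. The summed level given with the members' counts covers 30 measured genes. Among those at 0 in every WT library were Dbh, Chrna3, Slc18a3, Chat, Slc5a7 and Elavl4, each of which had counts in KO. Of 13 tested salivary gland markers, 12 were higher and none lower, with a summed level of 529 to 558 CPM in KO and 41.9 to 45.8 CPM in WT. Of 13 tested Schwann cell and myelin markers, 12 were lower and none higher, with a sum of 504 to 519 CPM in KO and 1458 to 1498 CPM in WT. The labels do not say whether the same tissue was dissected in both groups, so a difference in what was dissected and a difference of genotype cannot be told apart in any KO against WT value given here.

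Muscle and fat are tissues in which Rtl1 and Dlk1 are known to act. Of 21 tested muscle fibre markers, 8 were higher and none lower. Of 10 tested satellite cell and myogenic markers, 2 were higher and 1 lower, and the sum was 140 to 143 CPM in KO and 89.9 to 92.6 CPM in WT. Of 14 tested adipocyte and preadipocyte markers, 1 was higher and 7 lower, while their sum was 936 to 1023 CPM in KO and 557 to 744 CPM in WT. Fibroblast and synovial markers were split, 4 higher and 4 lower of 14. Of 11 tested chondrocyte markers, 2 were higher and 1 lower, with a sum of 51.1 to 59.2 CPM in KO and 27.0 to 31.4 CPM in WT. Of 13 osteoblast and osteocyte markers, 4 were higher and 2 lower, and of 6 osteoclast markers none was higher and 3 lower. Endothelial and pericyte markers were 2 higher and 2 lower of 12, and macrophage markers 1 higher and 7 lower of 13.

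**Figure D5:**
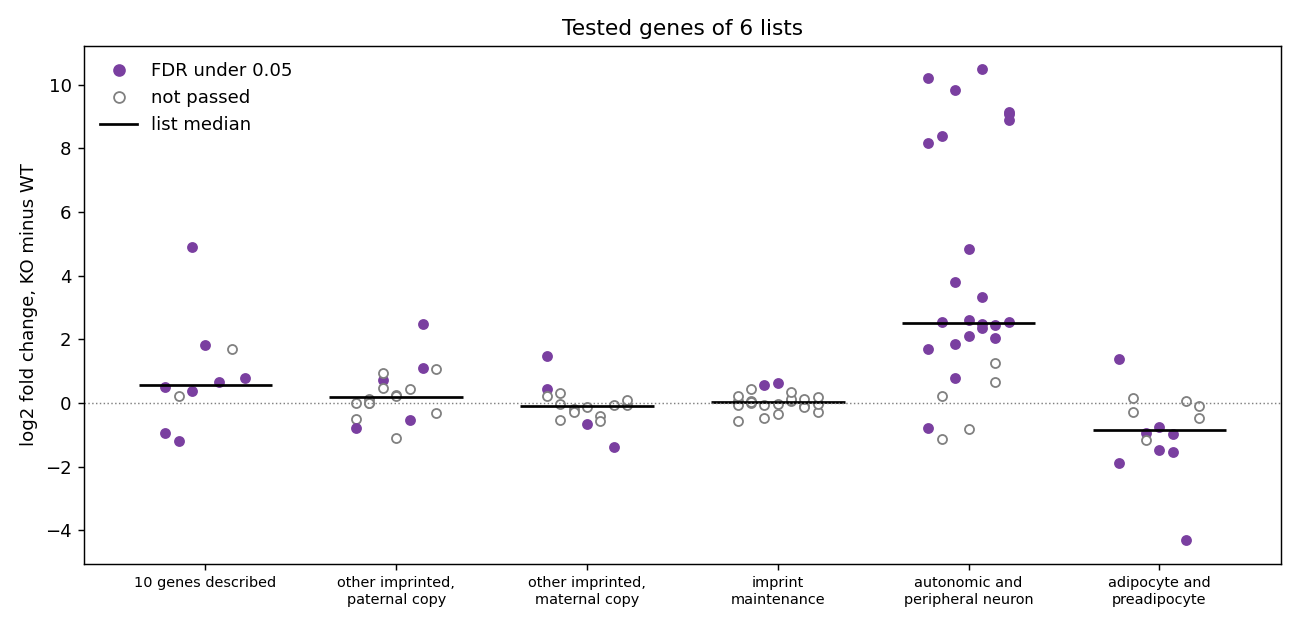
Log2 fold change, KO over WT, of each tested gene (points, filled where the FDR is under 0.05) in 6 lists, with a line at the list median. Most neuron marker points lie above 0 (22 called higher, 1 lower), most called adipocyte points lie below it (1 higher, 7 lower), and genes with no WT count are drawn at fitted values that are no bounds.

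Some genes outside the set had nearly the same profile over the 6 libraries as Meg3 or Dlk1, measured as the root-mean-square difference of centred log2 (CPM + 0.5) values among 11005 genes with a mean of at least 1 CPM. Nearest to Meg3 were 6430548M08Rik (0.061), Map3k6 (0.0945), Ret (0.101), Lrrc30 (0.106) and Lnx1 (0.120). Ret encodes the receptor of GDNF-family ligands and is the only one of these genes in the neuron marker list. It had 5.29, 4.31 and 4.68 CPM in KO libraries against 1.16, 1.13 and 0.893 CPM in WT libraries. Among the members the smallest value to Meg3 was that of Mest at 0.571 and the largest that of Dlk1 at 1.26. This order depends on the added 0.5 CPM, which shrinks the differences of genes near or below that level. Mirg, with a mean of 0.199 CPM, scored 0.711 although its log2 fold change (1.71) was nearer to that of Meg3 (1.82) than that of Mest (0.65). Members were not held to the limit of 1 CPM. Nearest to Dlk1 were Loxl1 (0.0604), Tmem189 (0.112), Phf21b (0.112), Samd14 (0.123) and Dennd2a (0.127), and the closest member was Plagl1 at 0.275. The 6 libraries fall into 2 groups and hold a close pair in each, so the values behind a profile are not independent.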

How the data were processed

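Total RNA of 6 temporomandibular joint libraries (3 KO, 3 WT) was enriched for mRNA with a bead kit, per the labels' protocols. The authors deposited raw read counts per gene symbol for 22032 genes, not normalized. HISAT2 2.1.0, StringTie 2.1.5 and mm39 are named in the submitters' processing notes, while the roles of these tools, the annotation, the strand setting and the rule for multi-mapped reads are not stated in the sources used here. The reference held here is another build (GRCm38.p6), used for lengths, overlaps and the printed sequences alone. Transcript lengths, the Rtl1 transcript searched and the overlaps of Mest and Cdkn1c came from GENCODE.

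Groups came from the sample titles. Libraries of a group were compared over genes with at least 20 summed counts. The variance between KO 1 and KO 3, and between WT 2 and WT 3, had a median of 0.941 and 0.964 times that of sampling read pairs (2 counts each), against 1.31 to 1.63 for the other pairs. The limit of 1.1 was put on the median, and the mean ratio of KO 1 with KO 3 was 1.18. Each close pair was summed. The labels tie no library to an animal of its own. The p-values therefore reflect the spread among these samples alone, and that spread may be technical. edgeR 4.0.16 in R 4.3.3 was run with filterByExpr (minimum count 10), TMM scaling and the robust quasi-likelihood test, with Benjamini-Hochberg adjustment over 14632 genes. The procedure was tested on simulated data. Alternatives used DESeq2 1.42.0, limma 3.58.1, other scaling and filters, and each library left out.

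The members and lists were chosen with earlier results of these data known. Named genes were all members, Igf2bp2, the cluster's genes and neighbours, the 5 nearest profiles to Meg3 and Dlk1, and from each pathway list the 4 genes of smallest p with the most abundant one. Other genes named were chosen after their values were seen.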

Additional observations from a re-analysis of the deposited data

How the results depend on the processing

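Over 15 alternatives, no member changed direction, and Rtl1, Meg3 and Mest passed in all of them, with log2 fold changes of 4.23 to 10.4, 1.76 to 2.02 and 0.60 to 0.70. Rian passed in none of 15 and Mirg in none of the 8 that tested it. Cdkn1c lost its call in 1 alternative, Grb10, Peg3 and Plagl1 in 2 each, and Dlk1 in 4 of 14. The main test called 2580 genes, 1339 higher and 1241 lower. DESeq2's Wald test called 1371 (774 higher, 597 lower) and 0 members lower, and keeping genes with 50 or more counts in 3 libraries left 1 member called lower, since Dlk1 was then not tested. Leaving out 1 library at a time called 1149 to 2434 genes, 616 to 1348 higher and 533 to 1187 lower, with 3 to 6 members higher and 0 to 2 lower. The lowest count came without KO 2 (3 members higher, 1 lower), where KO 1 and KO 3 remain as 1 sample assumed to vary like the WT samples. The same holds without WT 1, where WT 2 and WT 3 remain as 1 sample. The median of all genes stayed at -0.03 to 0.02. Taking the 6 libraries singly called 3452 genes, and adding the replicate number as a block called 2941, with 6 members higher and 2 lower in the block fit. Same-numbered libraries did not clearly deviate together (r = -0.083, -0.119 and 0.0615), and different-numbered ones gave r = -0.114 to 0.183. Whether the numbers pair animals cannot be told from this, since the close pairs leave little deviation beyond sampling noise to correlate. Depth limits Mirg, Dlk1 and Plagl1, which had at most 64 counts in any library.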

Other observations

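The maternally silenced Snrpn and its upstream reading frame Snurf, which share a transcript, had counts divided unevenly between their rows. Snrpn had 64, 111 and 68 counts in KO libraries against 18, 41 and 22 counts in WT libraries, and Snurf had 186, 86 and 158 counts in KO libraries against 109, 67 and 76 counts in WT libraries. Summed, the pair had 6.42, 4.67 and 5.71 CPM in KO libraries against 4.32, 4.71 and 3.81 CPM in WT libraries, and the groups overlapped.

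Peg13 was listed at 0, 507 and 0 counts in KO libraries against 371, 239 and 299 counts in WT libraries. Adnp had 417, 0 and 3 counts in KO libraries, and Plpp6 had 153, 0 and 0 counts in KO libraries. Abi2 had 21, 0 and 101 counts in WT libraries.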
